A study of Homo sapiens with 4 samples.

Results

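Cohesin subunits and regulators were examined in A549 cells, a human lung adenocarcinoma line, after knockdown of the long noncoding RNA USP2-AS1. The genes were chosen by name: the ring subunits SMC1A, SMC3 and RAD21, the STAG subunits STAG1 and STAG2, the cohesion establishment factors ESCO2 and CDCA5, and the regulators PDS5A, PDS5B and WAPL. Of these 10 genes, 9 were among the 6828 genes of the deposited table. PDS5B was not among them and was not analysed here. The table lists only genes that passed the authors' own test of change, so a gene without a row had no such call there. All 9 listed genes were downregulated in shUSP2-AS1 cells, as were 49.4% of all genes tested. The establishment factors ESCO2 and CDCA5 fell to 14.8% and 15.2% of their shctrl means. The ring subunits SMC1A, SMC3 and RAD21 fell to 47.7%, 48.5% and 59.4%, and PDS5A, WAPL, STAG1 and STAG2 to between 64.6% and 72.6%.

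Cohesin is a ring-shaped protein complex that holds sister chromatids together from S phase until anaphase and folds interphase chromatin into loops. SMC1A and SMC3 form the arms of the ring, the kleisin RAD21 closes it, and a STAG subunit binds RAD21. During S phase, acetylation of SMC3 by ESCO2 and binding of CDCA5 (sororin) make the complex cohesive, whereas WAPL, acting with PDS5 proteins, opens the ring and releases it from DNA.

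The comparison asked which genes respond to loss of USP2-AS1. A549 cells, labelled as epithelial, were infected with lentiviruses carrying a control shRNA (shctrl) or an shRNA against USP2-AS1 (shUSP2-AS1), and poly(A)-selected RNA taken 72 h later was sequenced in 2 libraries per group, described as biological replicates. All 4 libraries thus came from infected cells of 1 line, and which USP2-AS1 hairpin was used is not given in the sources used here. The table lists only genes with an adjusted p under 0.05 in the authors' own comparison. The direction and size of a change thus carry the information below, and passing the test carries little. The spread was estimated from these selected genes alone, so standard errors and adjusted p-values below may be too small and intervals too narrow.

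The reads on the listed genes numbered between 10772788 and 14120472 per library, and reads on other genes are not counted in these totals. The targeted RNA, USP2-AS1, was lower, with 24 and 22 reads in shctrl and 2 and 7 in shUSP2-AS1 (log2 fold change -2.39, adjusted p = 0.000597, limma). Of 11 airway and lung epithelial markers, 5 were listed, of which KRT8, KRT18 and KRT7 were lower and KRT19 and CLDN4 higher. Their summed normalised read count was 168250 to 179360 in shctrl and 106690 to 113270 in shUSP2-AS1. Of 14 fibroblast, endothelial and leukocyte markers, COL1A1 and LUM were listed, neither at 0 in any library, with a summed normalised read count of 263 to 295 in shctrl and 555 to 634 in shUSP2-AS1. The part of these markers in the results below was not tested. Fewer cells of a type and less RNA per cell cannot be told apart in bulk RNA.

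Promoter sequences are shown for 5 of the genes, chosen so that the strongest fall among the genes with a promoter window (CDCA5), 2 ring subunits (SMC1A and SMC3), a STAG subunit (STAG1) and a release factor (WAPL) can be read side by side. Each is the 250 bases before the RefSeq gene start on GRCh38.p14, written 5′ to 3′ on the strand of the gene. Capitals mark matches to an E2F-type site (TTTCCCGC, TTTGGCGC, TTTGCCGC or TTTCGCGC), to the cell cycle homology region (TTTGAA or TTCGAA) or to the CCAAT box (CCAAT), which reads as ATTGG, and TTTGAA as TTCAAA, on the other strand. E2F sites and the cell cycle homology region are known from genes that are transcribed with the cell cycle. The CDCA5 stretch is chr11:65084041-65084290 (minus strand), that of SMC1A, before the downstream of its 2 annotated starts, is chrX:53422655-53422904 (minus strand), that of STAG1 is chr3:136752379-136752628 (minus strand), that of SMC3 is chr10:110567445-110567694 (plus strand) and that of WAPL is chr10:86521793-86522042 (minus strand).
CDCA5: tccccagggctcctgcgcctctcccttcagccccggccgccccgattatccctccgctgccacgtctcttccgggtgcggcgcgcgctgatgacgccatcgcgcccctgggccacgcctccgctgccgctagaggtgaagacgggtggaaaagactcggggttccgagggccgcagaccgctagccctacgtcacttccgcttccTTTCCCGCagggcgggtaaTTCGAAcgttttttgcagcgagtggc
SMC1A: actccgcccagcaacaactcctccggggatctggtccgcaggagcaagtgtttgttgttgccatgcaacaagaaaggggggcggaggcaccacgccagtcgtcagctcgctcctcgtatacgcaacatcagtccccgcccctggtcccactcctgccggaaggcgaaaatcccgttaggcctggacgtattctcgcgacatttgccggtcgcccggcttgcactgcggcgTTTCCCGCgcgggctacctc
STAG1: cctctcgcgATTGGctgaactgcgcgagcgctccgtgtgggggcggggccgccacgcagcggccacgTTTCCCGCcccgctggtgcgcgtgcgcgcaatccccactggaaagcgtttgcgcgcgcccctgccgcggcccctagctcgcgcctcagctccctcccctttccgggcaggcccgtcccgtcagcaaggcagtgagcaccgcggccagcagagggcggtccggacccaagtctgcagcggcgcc
SMC3: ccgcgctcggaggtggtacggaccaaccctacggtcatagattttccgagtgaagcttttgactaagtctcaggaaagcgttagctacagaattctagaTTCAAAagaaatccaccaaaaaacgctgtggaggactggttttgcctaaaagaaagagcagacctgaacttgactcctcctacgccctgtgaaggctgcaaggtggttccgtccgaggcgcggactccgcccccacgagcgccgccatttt
WAPL: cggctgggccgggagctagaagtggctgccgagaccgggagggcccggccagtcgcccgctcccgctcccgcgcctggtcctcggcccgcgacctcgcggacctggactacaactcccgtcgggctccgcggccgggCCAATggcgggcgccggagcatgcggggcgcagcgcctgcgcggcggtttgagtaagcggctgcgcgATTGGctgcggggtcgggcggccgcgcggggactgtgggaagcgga

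Windows from 250 bases before to 50 after a gene start were found for 8 of the 10 genes, 11 windows in all, and were searched on both strands. An E2F-type site lay in windows of 4 of these 8 genes and in 3.31% of all 35116 windows. CDCA5 had TTTCCCGC at position -45 from the gene start, and STAG1 had it at position -183. SMC1A had the same letters at position -20 of its downstream start, and the window of its upstream start had no match. STAG2 had TTTGGCGC at position -51 of its most downstream start. A cell cycle homology match lay in windows of 3 of the 8 genes, SMC3, CDCA5 and PDS5B, and in 16.4% of all windows. In CDCA5 this was TTCGAA at position -26. CDCA5 was thus the only one of the 8 genes with both an E2F-type and a cell cycle homology match. The share of all windows that hold both was not counted. CCAAT lay in windows of 5 of the 8 genes, STAG1, STAG2, PDS5A, PDS5B and WAPL, and in 34.6% of all windows, and the E-box CACGTG in none of the 8 and in 7.26% of all. Genes with several starts had more windows in which a match could fall. A match in these letters is a description of the window and does not show that a factor binds there.

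**Figure D1:**
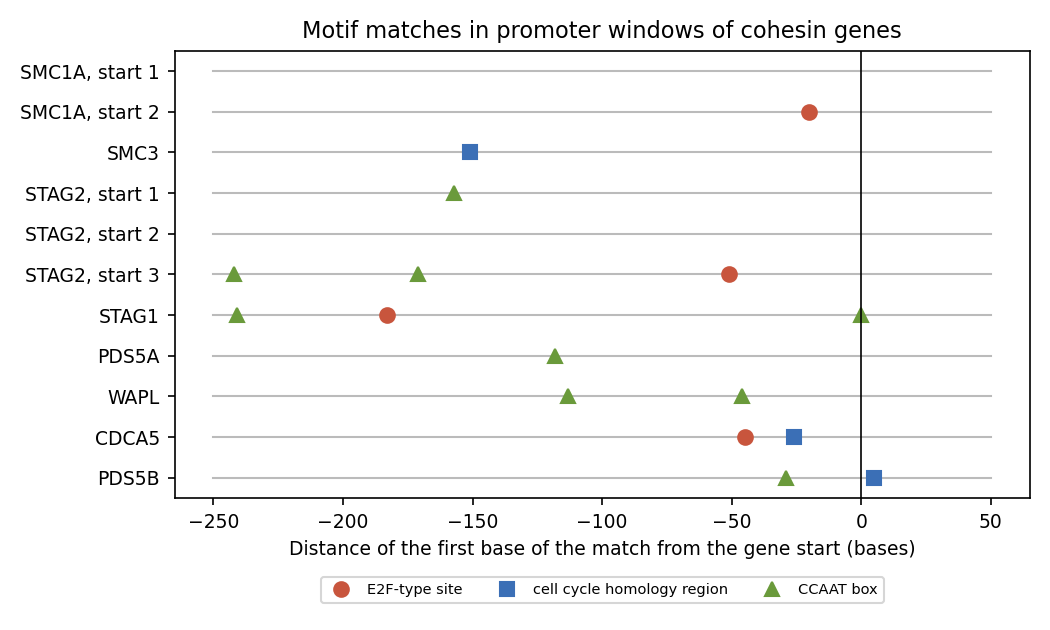
Motif matches in the 11 promoter windows of 8 cohesin genes, with 1 line per annotated start (numbered from the most upstream) and the distance of the first base of each match from the gene start in bases on the horizontal axis. CDCA5 has an E2F-type site at -45 and a cell cycle homology match at -26, and the first SMC1A and second STAG2 windows have no match.

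All 9 measured genes passed the test as lower (limma on log2(value + 1), Benjamini-Hochberg adjusted p under 0.05), where 49.4% of the 6812 genes tested did so. For 4 of them, SMC1A, SMC3, ESCO2 and CDCA5, the decrease was at least 2-fold, a size reached by 13.5% of all genes tested in the same direction. In all 9 genes both shUSP2-AS1 libraries lay below both shctrl libraries, as in 49.3% of the genes tested. This separation was nearly as frequent as a call of lower (3361 against 3362 genes). In listed genes it thus adds little to the direction of the change. The median log2 fold change of the 9 genes was -0.75, against 0.19 over all genes tested. Among the 6092 genes with a mean of at least 100, which include all 9, the median of all genes was -0.23 and that of the 9 was again -0.75. The genes nevertheless differed widely among themselves, from -2.74 for ESCO2 to -0.46 for STAG2.

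**Figure D2:**
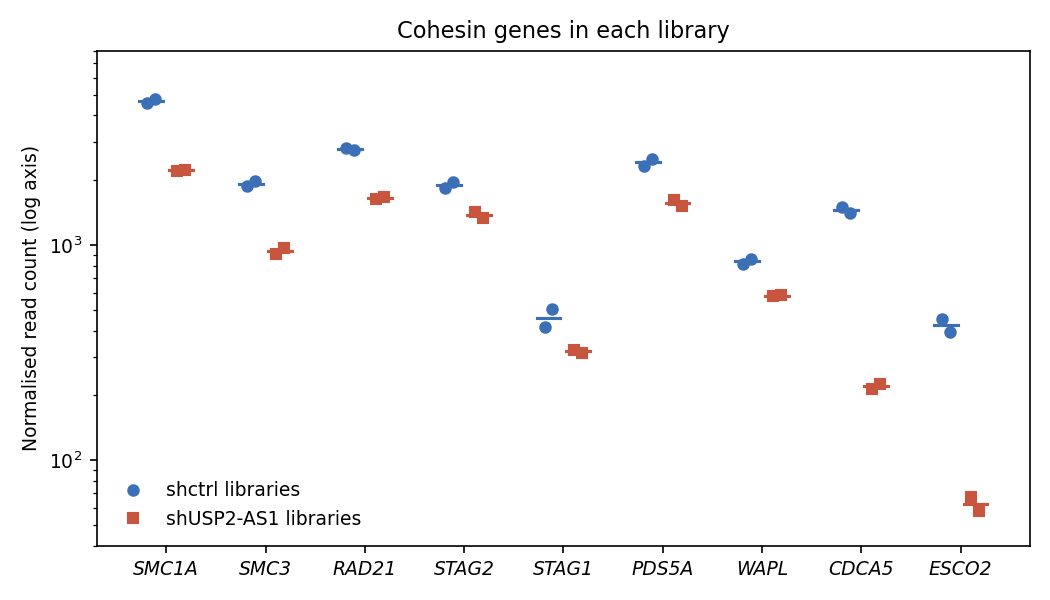
Normalised read counts (log axis) of the 9 cohesin genes in each library, with circles for shctrl, squares for shUSP2-AS1 and lines for the mean of the 2 libraries. In every gene the groups are apart, by the widest margin for CDCA5 (1403 to 1499 against 215 to 225) and ESCO2 (395 to 455 against 58.1 to 67.3).

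The core subunits of the ring were all downregulated. SMC1A (ENSG00000072501, chromosome X, 53374149 to 53422728, minus strand, hg38) is the SMC1 arm of mitotic cohesin. Its normalised read count was 4569.5 and 4749.7 in shctrl, against 2218 and 2229 in shUSP2-AS1. The groups did not overlap, and the 2 shUSP2-AS1 libraries were nearly equal. The mean fell from 4659.6 ± 127 to 2223.5 ± 8.09 (SD, n = 2 each), a log2 fold change of -1.07 (SE 0.05, 95% interval -1.18 to -0.96, adjusted p = 3.45e-12 from limma).

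SMC3 (ENSG00000108055, chromosome 10, 110567695 to 110606048, plus strand) is the arm that ESCO1 and ESCO2 acetylate. It had 1881 and 1978 in shctrl and 903 and 969 in shUSP2-AS1. The groups did not overlap and the libraries within each group lay close together. Its mean decreased from 1929.7 ± 68.5 to 936 ± 46.7 (SD, n = 2 each), with a log2 fold change of -1.04 (SE 0.06, 95% interval -1.18 to -0.91, adjusted p = 8.87e-11 from limma). The size of this change lies at the 2-fold threshold: without shUSP2-AS1 replicate 1 it was -0.99. Tested against a change of 2-fold rather than against no change, neither SMC1A (adjusted p = 0.459, limma) nor SMC3 (adjusted p = 0.983, limma) passed.

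RAD21 (ENSG00000164754, chromosome 8, 116845934 to 116874776, minus strand) is the kleisin that separase cuts at anaphase. Its values were 2820.5 and 2751 in shctrl and 1633 and 1675 in shUSP2-AS1, with no overlap. On average RAD21 decreased from 2786 ± 49.4 to 1654 ± 29.3 (SD, n = 2 each) and the log2 fold change was -0.75 (SE 0.05, 95% interval -0.87 to -0.64, adjusted p = 8.36e-10 from limma). This interval lies above those of SMC1A and SMC3, though such intervals may be too narrow for genes selected in these same libraries. The direct comparison of RAD21 with SMC3 is given with the ratios. Of its exon bases, 576 are shared with UTP23 and 271 with RAD21-AS1 on the opposite strand in GENCODE release 44, and whether reads were counted by strand is not given in the sources used here.

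STAG1 and STAG2, which occupy the same place in the complex and define its alternative forms, had the smallest decreases together with WAPL. STAG2 (ENSG00000101972, chromosome X, 123960212 to 124422664, plus strand) had 1836 and 1963 in shctrl and 1416.5 and 1340 in shUSP2-AS1. STAG2 decreased on average from 1899 ± 89.7 to 1378 ± 54.1 (SD, n = 2 each), a log2 fold change of -0.46 (SE 0.06, 95% interval -0.59 to -0.33, adjusted p = 1.76e-06 from limma). STAG1 (ENSG00000118007, chromosome 3, 136336236 to 136752403, minus strand) had 415 and 503 in shctrl and 326 and 316 in shUSP2-AS1. Its shctrl libraries were the farthest apart in relation to the change, and the second was the higher. STAG1 decreased on average from 459 ± 62.8 to 321 ± 7.01 (SD, n = 2 each), and the log2 fold change was -0.51 (SE 0.11, 95% interval -0.73 to -0.28, adjusted p = 0.000221 from limma). STAG1 shares 1661 exon bases with PCCB, a gene on the opposite strand whose own log2 fold change was 0.28. STAG2 shares 241 exon bases with TENM1 and 28 with STAG2-AS1, and SMC1A shares 39 with RIBC1, all on the opposite strand.

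The cohesion establishment factors had the largest decreases of the 9 genes. ESCO2 (ENSG00000171320, chromosome 8, 27771949 to 27812640, plus strand) is the acetyltransferase that modifies SMC3 during S phase. It had 455 and 395 in shctrl and 67.3 and 58.1 in shUSP2-AS1, from 471, 359, 64 and 66 reads. Both shUSP2-AS1 libraries were far below either shctrl library. The mean fell from 425 ± 42.8 to 62.7 ± 6.50 (SD, n = 2 each), a log2 fold change of -2.74 (SE 0.15, 95% interval -3.05 to -2.43, adjusted p = 1.34e-11 from limma). Among all genes tested, ESCO2 ranked 35 from the lowest fold change. The gene overlaps CCDC25 and PBK, but shares 0 exon bases with either.

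CDCA5 (ENSG00000146670, chromosome 11, 65066300 to 65084164, minus strand) encodes sororin, which keeps WAPL from opening the ring until mitosis. Its values were 1499 and 1403 in shctrl and 215 and 225 in shUSP2-AS1. The groups were again far apart. CDCA5 decreased on average from 1451 ± 67.4 to 219.96 ± 7.68 (SD, n = 2 each), with a log2 fold change of -2.72 (SE 0.08, 95% interval -2.89 to -2.54, adjusted p = 1.32e-14 from limma). CDCA5 ranked 39 from the lowest. ESCO2 and CDCA5 were the 2 of the 9 genes that also passed the test against a 2-fold change (adjusted p = 2.5e-08 and 2.56e-11, limma). Of the 6812 genes tested, 523 passed it as lower. The CDCA5 promoter was the window with both an E2F-type and a cell cycle homology match. E2F-type sites also lay in windows of SMC1A (log2 fold change -1.07), STAG1 (-0.51) and STAG2 (-0.46), and ESCO2 had no window. A link between motif matches and fold changes was not tested.

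The regulators of ring opening were downregulated less than 2-fold. PDS5A (ENSG00000121892, chromosome 4, 39822863 to 39977956, minus strand), a scaffold that binds both WAPL and sororin, had 2326 and 2519.9 in shctrl and 1611 and 1520.5 in shUSP2-AS1. The mean fell from 2423 ± 137 to 1566 ± 64.0 (SD, n = 2 each), and the log2 fold change was -0.63 (SE 0.06, 95% interval -0.76 to -0.50, adjusted p = 3.01e-08 from limma). WAPL (ENSG00000062650, chromosome 10, 86435256 to 86521792, minus strand), the release factor, had 818 and 863 in shctrl and 579 and 584 in shUSP2-AS1. Neither gene had overlapping groups, and the shUSP2-AS1 libraries of WAPL were nearly equal. The WAPL mean fell from 841 ± 31.3 to 582 ± 3.04 (SD, n = 2 each), with a log2 fold change of -0.53 (SE 0.08, 95% interval -0.69 to -0.37, adjusted p = 4.1e-06 from limma).

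Levels of different genes were compared as normalised read counts per kb of the gene length in the deposited table. The order of genes and the level of each ratio depend on this length, which was not checked against the transcripts expressed. In shctrl cells the order of the mean levels was RAD21 (456), SMC1A (430), CDCA5 (372), SMC3 (340), STAG2 (232), PDS5A (199), WAPL (117), STAG1 (58.5) and ESCO2 (54.4). Of these neighbours, the libraries of STAG1 (52.9 and 64.2) and ESCO2 (58.3 and 50.5) overlapped, and those of the other neighbours did not. In shUSP2-AS1 cells the order of the mean levels per kb was RAD21 (271), SMC1A (205), STAG2 (168), SMC3 (165), PDS5A (128), WAPL (80.7), CDCA5 (56.4), STAG1 (40.9) and ESCO2 (8.03), and only STAG2 and SMC3 overlapped among neighbours. CDCA5 moved from above SMC3 to below WAPL, and STAG2 from below SMC3 to overlap with it.

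**Figure D3:**
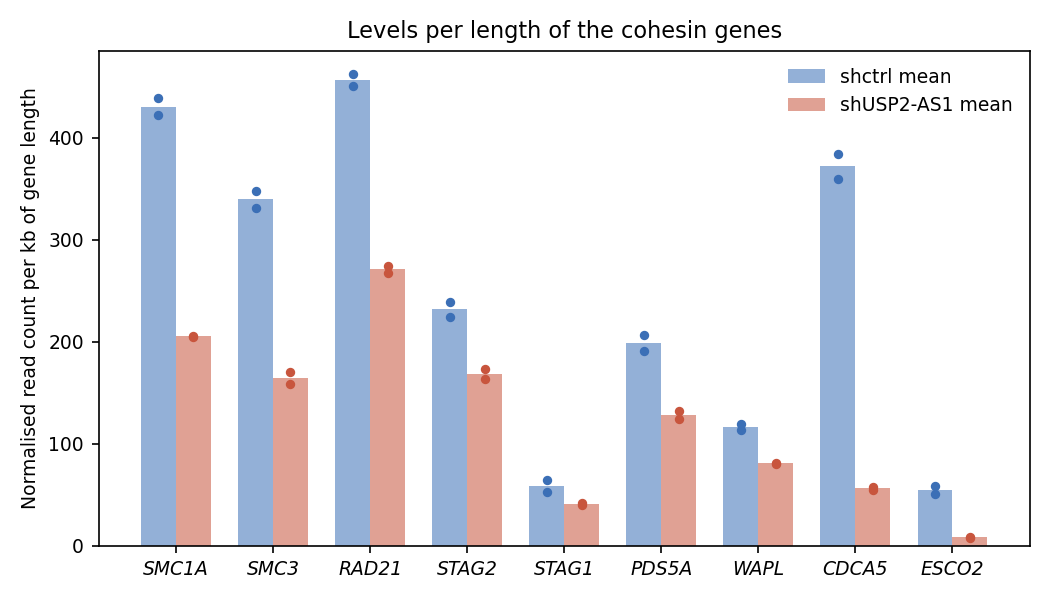
Normalised read count per kb of gene length for the 9 cohesin genes, with bars for the mean of 2 libraries and points for the libraries. CDCA5, at 372 per kb in shctrl, lies between SMC1A and SMC3 there and falls to 56.4 in shUSP2-AS1, below WAPL at 80.7.

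Ratios of levels per kb within a library do not depend on the scaling between libraries, and 7 pairs were compared. With 2 libraries against 2, the two-sided exact permutation test cannot give a p under 0.333, so no ratio can pass. The balance of the STAG subunits was similar in the groups: STAG1 made up 19.1% and 21.1% of the STAG1 and STAG2 level in shctrl and 19.4% and 19.8% in shUSP2-AS1 (exact permutation p = 1). The ratio of the SMC arms, SMC1A to SMC3, was 1.28 and 1.26 in shctrl and 1.29 and 1.21 in shUSP2-AS1 (exact permutation p = 1). These ranges overlap, and with 2 libraries per group they do not show that the ratios were equal.

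In the other 5 pairs the groups did not overlap (exact permutation p = 0.333 for each). RAD21 to SMC3 was 1.40 and 1.29 in shctrl and 1.68 and 1.61 in shUSP2-AS1, a mean ratio 1.22-fold higher. WAPL to SMC3 was 0.343 and 0.344 in shctrl and 0.506 and 0.475 in shUSP2-AS1, 1.43-fold higher. The establishment factors moved the other way. CDCA5 to WAPL, the protector against the release factor, was 3.38 and 3.005 in shctrl and 0.684 and 0.713 in shUSP2-AS1, 4.57-fold lower. CDCA5 to PDS5A went from 2.02 and 1.74 to 0.417 and 0.464, 4.26-fold lower, and ESCO2 to SMC3 from 0.176 and 0.145 to 0.0543 and 0.0437, 3.29-fold lower. CDCA5 was thus above WAPL in both shctrl libraries and below it in both shUSP2-AS1 libraries.

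**Figure D4:**
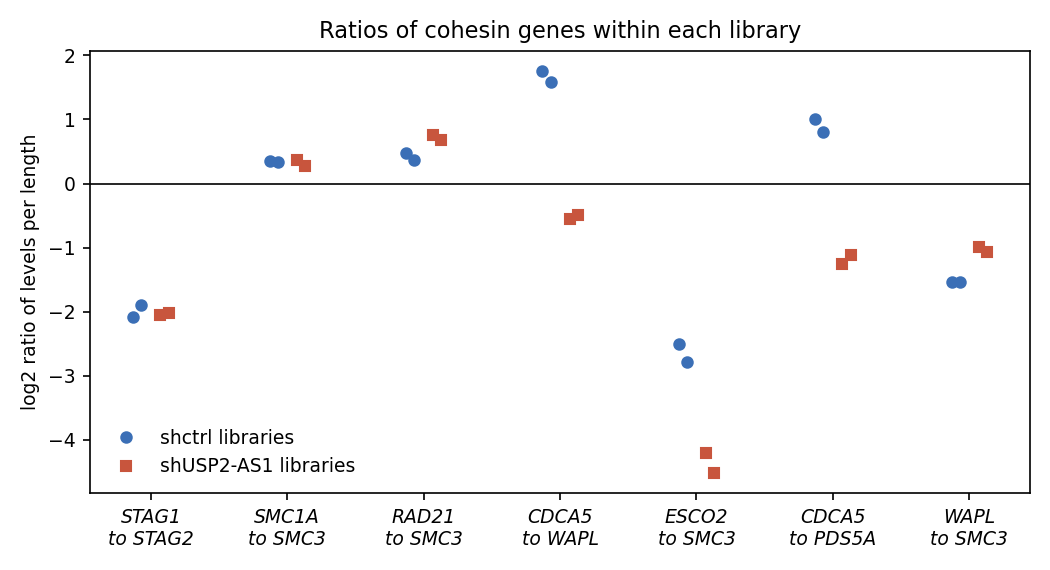
log2 ratios of levels per length for 7 pairs of cohesin genes in each library, with circles for shctrl and squares for shUSP2-AS1. STAG1 to STAG2 and SMC1A to SMC3 overlap between the groups, whereas CDCA5 to WAPL and CDCA5 to PDS5A go from above 0 to below 0. Before division by gene length, CDCA5 lay below PDS5A in both groups.

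Genes that act on cohesin at other steps were measured in the same table. Of all genes tested, 49.4% were lower and 13.5% fell at least 2-fold. Of 13 genes that couple cohesion to the replication fork, 12 were listed and all 12 fell at least 2-fold, with a median log2 fold change of -1.87. The largest decreases were in WDHD1, a fork scaffold (-3.19), the checkpoint mediator CLSPN (-2.44), and the fork protection partners TIMELESS (-1.99) and TIPIN (-1.98). Of 14 genes of cohesin protection and cleavage, 12 were listed and all 12 were lower, 9 of them at least 2-fold (median -2.22). The mitotic kinases BUB1 (-2.65), AURKB (-2.55), PLK1 (-2.50) and CDK1 (-2.40) led this list. Separase itself, ESPL1, the protease for RAD21, had -2.20, and the 3 genes under 2-fold were the protein phosphatase 2A subunits PPP2R1B, PPP2R5E and PPP2R5C (-0.56, -0.37 and -0.25); these 4 genes were chosen after their values were seen. The loading and acetylation genes NIPBL, MAU2, ESCO1 and HDAC8, and the meiotic subunits SMC1B, REC8, RAD21L1 and STAG3, were not listed and not analysed here.

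Partners of cohesin in chromatin loops had smaller decreases. Of 8 genes, 4 were listed and all 4 were lower, none of them 2-fold (median log2 fold change -0.46). MED1 and MED12, subunits of Mediator, had -0.82 and -0.29, CTCF, the factor at which loop extrusion by cohesin stops, had -0.63, and the chromatin protein ADNP had -0.22. The values of CTCF and PDS5A (-0.63) were thus alike in size, and RAD21 (-0.75) lay between CTCF and MED1.

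The other SMC complexes fell on either side of the cohesin ring. All 8 condensin genes, which compact mitotic chromosomes, were listed and lower, 7 of them at least 2-fold, with a median log2 fold change of -1.95. NCAPG (-2.52), NCAPH (-2.46), NCAPD2 (-2.45) and NCAPG2 (-2.04) had the largest decreases. Of 10 genes of the SMC5/6 complex, which acts in DNA repair, its partners and SMCHD1, a noncanonical SMC protein of X inactivation, 7 were listed and lower, with a median of -0.52. SLF1, which recruits SMC5/6 to DNA damage, was the 1 gene of this list to fall at least 2-fold (-1.37), followed by SMCHD1 (-0.78), EID3 (-0.75) and SMC5 (-0.52). ESCO2 and CDCA5 had log2 fold changes below all 8 condensin genes, whereas those of SMC1A and SMC3 lay above 7 of the 8 and below that of NCAPH2 (-0.83), named here after its value was seen. E2F1, a transcription factor of the cell cycle, had a log2 fold change of -2.12 (adjusted p = 2.36e-13, limma). All genes tested were listed for a change in this same comparison, so these counts describe the listed genes. Of the genes tested, 49.4% were lower and 13.5% fell at least 2-fold.

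**Figure D5:**
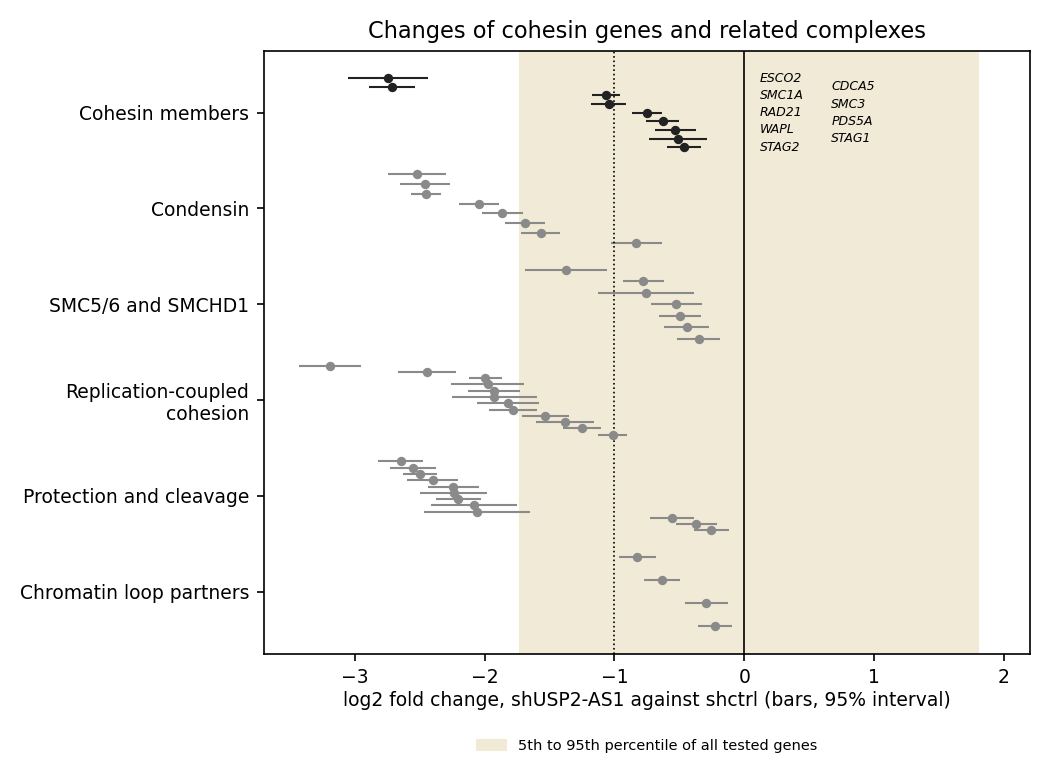
log2 fold changes of the cohesin genes (named in order from the lowest) and of 5 lists of related genes, with 95% intervals. The shaded band runs from -1.73 to 1.80, the 5th and 95th percentiles of all genes tested, and the dotted line marks a 2-fold decrease. ESCO2 and CDCA5 lie outside the band with most condensin genes and the mitotic kinases, and the other 7 cohesin genes lie inside it.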

How the data were processed

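RNA-seq of 4 A549 libraries was analysed from 1 deposited table. Per the labels, the submitters' processing notes name HISAT2 (2.0.5), featureCounts (1.5.0-p3), DESeq2 (1.20.0) and hg38, and the annotation release is not given in the sources used here. The authors deposited a normalised signal for each gene in each library, that is, reads over the library's size factor. Further columns the authors deposited hold gene length and the results of their own comparison (fold change, p-value and its adjusted form). Those comparison columns were not used, except that the adjusted p-value was read to test which genes are listed: 0 of 6828 had a value of at least 0.05. Table columns named with scr and sh216 were taken as shctrl and shUSP2-AS1 from the heading of the table, and replicates from the numbers. Columns of other samples numbered 0.

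Genes whose mean value reached 10 (6812 genes) were fitted as log2(value + 1) with limma (3.58.1, R 4.3.3), with a trend, and p was adjusted over all of them. Fold changes are on that scale, which understates changes of genes with few reads. Of these genes, 6811 had an adjusted p under 0.05. All values (100% in each library, within 0.01 reads) were whole reads after division by the value of 1 read (0.966 and 1.10 in shctrl, 1.05 and 0.88 in shUSP2-AS1). The recovered reads served edgeR (4.0.16), which called 2022 genes at 2-fold, and DESeq2 (1.42.0). Counts of replicates were farther apart than sampling noise allows (chi-square per degree of freedom 3.76 in shctrl and 3.84 in shUSP2-AS1). Separate cultures are not described further, so p-values measure the spread between these libraries. The fit was tested on simulated data with 200 changed genes and no change in the others, where limma recovered 96% of the changed genes tested. Nearly all genes of the real table pass, so that setting differs from these data.

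The genes and lists were chosen with earlier results of these data known. Every member with a row was named, and up to 4 genes of each other list with the largest absolute fold change, and 1 gene of the lists is not reported here. Promoter windows came from RefSeq (GRCh38.p14) and overlaps from GENCODE 44. Alternatives were other scalings, filters, a pseudocount of 0.1, count tests, a replicate block, testing for more than a 2-fold change, each library left out and a promoter window of 100 bases.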

Additional observations from a re-analysis of the deposited data

How the results depend on the processing

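The 9 cohesin genes were recomputed under 13 alternatives each, and all 117 values kept their direction and an adjusted p under 0.05 (limma, or the count test used). As 6811 of 6812 genes pass that threshold in the listed table, passing it says little about stability. Where a library was left out, the lone library of its group was assumed to vary like those of the other group. Tested against a 2-fold change, 2 rather than 4 cohesin genes passed, and the genes at 2-fold numbered 523 rather than 922 lower and 541 rather than 1098 higher. That test asks for more than an estimate past the threshold. With a minimum mean of 100, fewer genes were tested (6092), of which 715 were lower and 648 higher by at least 2-fold. Of the genes called at 2-fold, 52.5% rather than 45.6% were then lower. The median log2 fold change of all genes was -0.23 rather than 0.19. SMC3 was under 2-fold with upper quartile scaling (-0.98) and without shUSP2-AS1 replicate 1 (-0.99). With each library left out in turn, the median log2 fold change of the 9 cohesin genes ranged from -0.77 to -0.73. STAG1 depended most on 1 library, with -0.65 without shctrl replicate 1 and -0.37 without shctrl replicate 2. RLE scaling lowered the median of all genes by 0.12 on the log2 scale, with 1143 genes lower and 929 higher by at least 2-fold. With the replicate number as a block, 9 cohesin genes were lower, 4 of them at least 2-fold. Over all genes, 922 were lower and 1098 higher by at least 2-fold, so the block changed none of these counts. The replicate differences of the groups correlated at -0.04 across genes, so the numbers were not taken to pair the libraries. With a library left out, the log2 difference of the STAG1 to STAG2 ratio between groups ranged from -0.14 to 0.05 and that of SMC1A to SMC3 from -0.07 to 0.02, with the sign turning without shctrl replicate 2 for the former and without shUSP2-AS1 replicate 2 for the latter. In the shorter promoter window CCAAT lay in 3 rather than 5 genes, and in 21.3% rather than 34.6% of all windows. E2F-type sites lay in 3 rather than 4 genes there, without STAG1 (all windows, 1.68% rather than 3.31%). Cell cycle homology matches lay in 2 rather than 3 genes, without SMC3 (all windows, 7.37% rather than 16.4%). The 64 and 66 reads of ESCO2 in shUSP2-AS1 set the precision of its fold change, and libraries of 2 per group limit every ratio.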
